A study of Mus musculus with 8 samples.

Results

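The myosin heavy chain genes Myh1, Myh2, Myh3, Myh4, Myh6, Myh7, Myh8, Myh9, Myh10 and Myh14 were followed in ASCs, muscle stem cells that injury has activated out of quiescence. The members were chosen by gene symbol, and 10 of 10 were among the 18877 symbols of the deposited table. A mean of at least 10 normalized reads over the 8 libraries, the limit set for testing, was reached by 9 of them and by 11754 symbols in all. Myh6 was below that limit and is given by its values.

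ASCs were isolated from injured tibialis anterior muscle of 4 wild-type and 4 mfn2-/- samples, and total RNA was sequenced with a stranded low-input kit. The genotypes differ in a floxed allele of Mfn2, which encodes mitofusin 2, a protein of mitochondrial fusion, and the comparison asks what its loss does to the transcripts of these cells. Both groups carried the mito-Dendra2 reporter under Pax7-CreERT2 and received tamoxifen at 75 mg/kg daily for 5 days, then 50 uL of 1.2% BaCl2 into the muscle 2 days after the last dose. Cells were sorted 2 days after injury as CD34-, Dendra2+, DAPI- cells, so a cell entered the sort through recombination in the Pax7 lineage, and deletion was limited to that lineage in mice that were otherwise not deleted. Age is not given in the labels. The labels do not say whether each library came from a separate animal, so p-values measure the spread between these samples.

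A myosin heavy chain carries the motor that pulls on actin and a long coiled tail that packs into filaments. Muscle fibers use sarcomeric forms: Myh3 is the embryonic form, Myh8 the neonatal form, Myh2, Myh1 and Myh4 the adult fast forms IIA, IIX and IIB, Myh7 the slow and beta-cardiac form, and Myh6 the alpha-cardiac form. Regenerating fibers pass through the embryonic and neonatal forms before they make an adult one. Myh9, Myh10 and Myh14 encode the heavy chains of non-muscle myosin IIA, IIB and IIC, which drive adhesion, migration and cell division in most cells.

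Values are normalized reads, that is, reads divided by 1 size factor per library. Depth ran from 1880464 to 7508215 assigned reads, which put the worth of 1 read between 0.534 and 2.27 normalized reads. A level of 0 therefore allows up to 1.60 to 6.82 normalized reads, the worth of 3 reads, and such limits cover counting error only. The fewest genes with a read, 9646, were found in mfn2-/- replicate 4 at 2269009 reads. The shallower wild-type replicate 1 had 12613, so depth alone does not set that number. Mfn2, the targeted gene, stood at 243, 245, 202 and 228 in wild-type replicates 1 to 4 and at 104, 118, 172 and 110 in mfn2-/- replicates 1 to 4. Its groups did not overlap, at a log2 change of -0.88 ± 0.30 (SE) that missed the threshold (limma adjusted p = 0.0848). A count over the whole gene cannot show the deleted part alone. Of the 8 libraries, 4 held reads of the Y-linked genes Uty, Ddx3y, Kdm5d and Eif2s3y (807 to 2336 reads: replicates 3 and 4 of wild-type, 1 and 2 of mfn2-/-), and the other 4 held 0. Changes of the tested members are therefore also given within each of these 2 sets.

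The libraries differed in markers of other cells. Of 11 fibroadipogenic markers, 9 were lower and 0 higher in mfn2-/- ASCs, and their summed level ran from 173040 to 239739 in wild-type and from 1045 to 3307 in mfn2-/- libraries. All 7 tenocyte markers were lower, with summed levels of 35685 to 56229 and 306 to 404. Of the 10 tested myogenic markers, 3 were higher (Des, Myod1 and Vcam1) and 0 lower, with a median log2 change of 0.0866, and Myog (-1.37), Itga7 (-0.87) and Tmem8c (-2.20) had negative values without being called. The sum of the 11 in the table ran from 5724 to 8408 and from 11716 to 18113, of which Des, an intermediate filament protein, held means of 2156 and 7969. Pax7, which defines the muscle stem cell, was present in both groups, with means of 662 ± 45.9 and 715 ± 96.1 (SD, n = 4 each). In bulk RNA, fewer cells of a type and less RNA per cell cannot be told apart. The part of these markers in the myosin results below was not tested.

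The fast and neonatal forms of the chromosome 11 cluster shared a short stretch of promoter sequence. Of these forms, Myh1 and Myh4 were called between the genotypes, and Myh2 and Myh8, which carry the same stretch, were not. Whether the sequence bears on the calls was not tested. In the RefSeq promoter windows (GRCm38.p6, 250 bases before to 50 after each start site, 11 windows for the 10 members), 14 bases were the longest run shared by Myh1, Myh2, Myh4 and Myh8. The 4 windows were compared for this purpose, so that they hold the run follows from how it was found. It occurred, on either strand, in 4 of 32851 promoter windows (0.0122%), those of these genes alone. It lay 160 bases before the start site in Myh1, 125 in Myh2, 158 in Myh4 and 54 in Myh8. The stretches below are plus-strand sequence at chr11:67199882-67199965 (Myh1), chr11:67170842-67170925 (Myh2), chr11:67237594-67237677 (Myh4) and chr11:67277010-67277093 (Myh8), 5′ to 3′, with the shared run in capitals.
Myh1: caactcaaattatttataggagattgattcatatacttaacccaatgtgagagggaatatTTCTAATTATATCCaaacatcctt
Myh2: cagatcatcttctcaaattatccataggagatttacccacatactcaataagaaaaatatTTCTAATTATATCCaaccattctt
Myh4: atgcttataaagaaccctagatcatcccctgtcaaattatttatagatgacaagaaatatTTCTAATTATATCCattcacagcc
Myh8: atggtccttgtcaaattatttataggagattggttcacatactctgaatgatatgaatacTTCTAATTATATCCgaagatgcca

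Upstream of the run, Myh1, Myh4 and Myh8 held a match to the MEF2 box, the A/T-rich site of the myocyte enhancer factors, and the Myh2 window held none. Of all promoter windows 3.19% held that motif on either strand. In Myh1 it began 211 bases before the start site, in Myh4 182 and in Myh8 99. The E box CAGCTG, a form that MyoD family factors can bind, was found in the windows of Myh4 and Myh10 and in 16.3% of all windows. The CArG box, the site of serum response factor, was found in Myh4 among the members and in 1.63% of all windows. The hypoxia response core ACGTG was found in Myh1 and Myh3 and in 19.6% of all windows. TATAAA was found in 7 of 11 member windows, against 13.6% of all, and some of its matches overlap the MEF2 box. These are matches of letters and not measured binding.

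The muscle heavy chains took a larger share of all myosin heavy chain reads in mfn2-/- ASCs. In wild-type replicates 1 to 4 the 7 muscle members made up 4.73% (Wilson 95% interval 3.78 to 5.90), 6.45% (5.69 to 7.30), 11.2% (10.2 to 12.2) and 9.17% (8.46 to 9.93) of the reads of the 10 genes. In mfn2-/- replicates 1 to 4 they made up 26.8% (25.7 to 27.9), 26.9% (25.7 to 28.2), 20.6% (19.6 to 21.6) and 20.5% (19.1 to 22.0). The lowest mfn2-/- library lay above the highest wild-type library. The means were 7.88% ± 2.86 and 23.7% ± 3.61 (SD, n = 4 each). Summed over the 7 genes, the normalized level was 267 ± 85.8 for wild-type against 1052 ± 79.9 for mfn2-/- ASCs, whereas the sum of the 3 non-muscle members was 3168 ± 292 and 3470 ± 781, with overlapping groups. The 10 genes together had a level of 828 ± 33.0 CPM in wild-type and 1129 ± 207 CPM in mfn2-/- libraries.

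**Figure D1:**
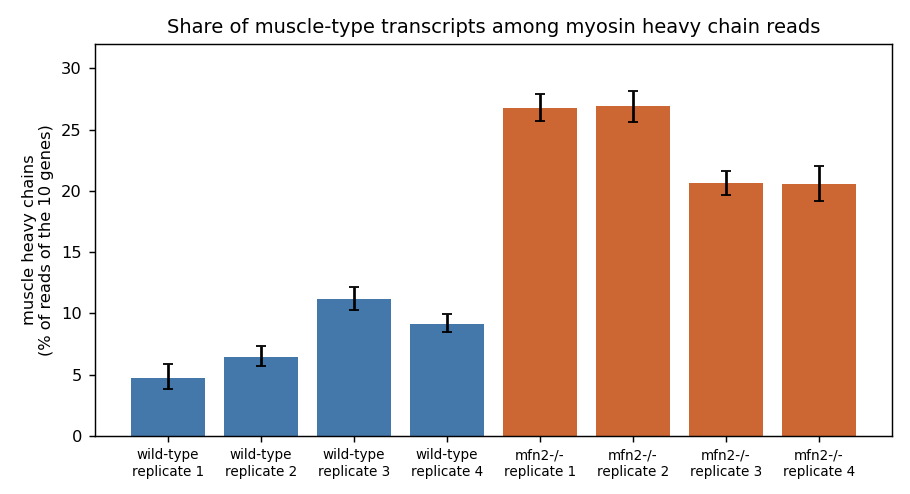
Bars show the share of the 7 muscle members among reads of the 10 myosin heavy chain genes in each library, in percent, and error bars show Wilson 95% intervals. The 4 mfn2-/- libraries lie between 20.5% and 26.9%, and the wild-type libraries between 4.73% and 11.2%.

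Single members were compared with limma across all genes tested (n = 4 per group). Myh1 and Myh4 were higher and Myh10 was lower, and 6 of the 9 tested members were not called. Over all 11754 genes the same test called 10.4%, with 3.99% higher and 6.36% lower in mfn2-/- ASCs. Groups did not overlap for 4 of the 9 members (Myh1, Myh4, Myh8 and Myh10) and for 19.5% of all genes tested, 7.36% with mfn2-/- libraries higher and 12.2% with them lower. The median log2 change of the 9 members was 0.40, and that of all genes was -0.16.

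**Figure D2:**
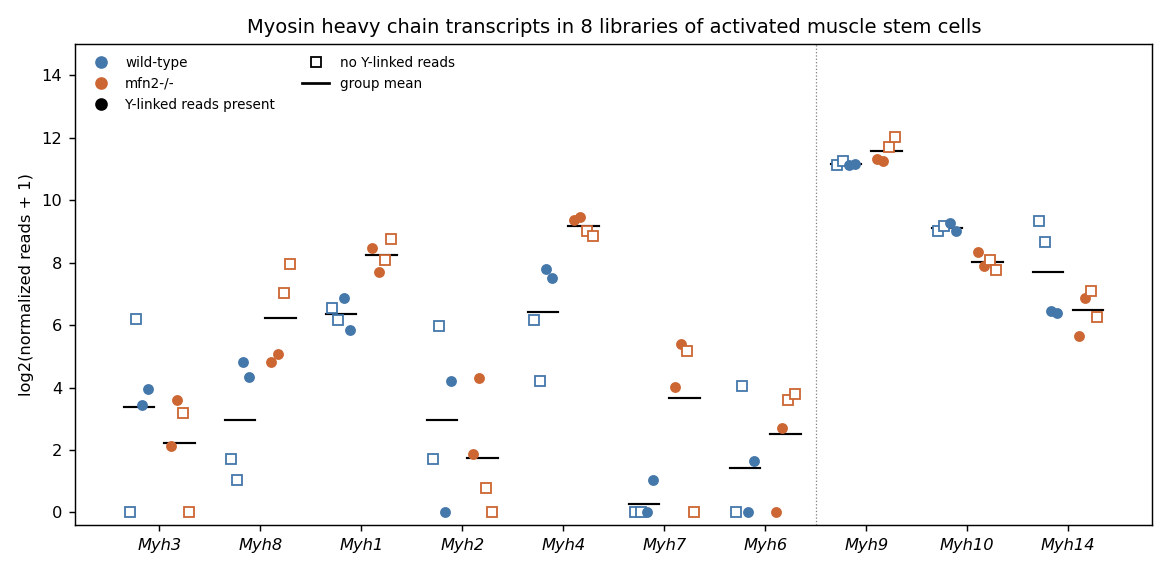
Each point is 1 library, with log2(normalized reads + 1) on the vertical axis and the muscle members left of the dotted line. Myh1, Myh4, Myh8 and Myh10 have no overlap between wild-type and mfn2-/- libraries, and Myh2, Myh3 and Myh6 scatter from 0 upward in both groups.

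Among the developmental forms, Myh3 was weak in both groups. It stood at 0, 71.6, 9.80 and 14.4 normalized reads in wild-type and at 3.33, 11.1, 8.11 and 0 in mfn2-/- replicates 1 to 4. The groups overlapped, and wild-type replicate 2 alone made up most of the wild-type mean. The 95% interval of the log2 change of -1.17 ran from -4.28 to 1.95 and spans both directions (limma adjusted p = 0.662). Without wild-type replicate 2 the change was -0.24. Within the libraries with Y-linked reads it was -0.84, and within those without it was -1.50.

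Myh8, the neonatal form, stood at 2.27, 1.04, 26.95 and 19.2 in wild-type and at 27.3, 32.4, 130 and 249 in mfn2-/- replicates 1 to 4. Every mfn2-/- library was above every wild-type library, but wild-type replicate 3 and mfn2-/- replicate 1 were nearly equal. At 3.25 (SE 1.15) its log2 change did not pass the threshold (limma adjusted p = 0.0958). The two-sided exact permutation test over the 70 arrangements gave p = 0.0286, the smallest it can give. Of 24 alternative analyses 2 called it, DESeq2 and quantile normalization (adjusted p = 0.0130 and 0.0248). These 2 called 14.8% and 11% of all genes, and edgeR, which did not call Myh8, called 9.85%. With limma's library weights, lowest for mfn2-/- replicate 4 (0.167), the log2 change was 1.37 (limma adjusted p = 0.214). Without the shallowest library of each group it was 2.25 (limma adjusted p = 0.215). Within the libraries with Y-linked reads the log2 change was 0.37 and within those without it was 6.13. The difference of these changes was -5.76 (SE 1.64), which did not pass limma's interaction test (adjusted p = 0.167), as 1.47% of all genes did.

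Myh4, the fast IIB form, showed the largest log2 change among the called members. It stood at 70.5, 17.6, 220 and 180 in wild-type and at 663, 710, 510 and 464 in mfn2-/- replicates 1 to 4. All mfn2-/- libraries exceeded all wild-type libraries, and the lowest and highest wild-type libraries differed widely. The means were 122 ± 93.9 and 587 ± 118 (SD, n = 4 each), a ratio of 4.81. The fitted log2 change, a difference of group means of log2(value + 1), was 2.76 ± 0.61 (SE). It is not the log2 of that ratio. The limma adjusted p was 0.0119, and the exact permutation test gave p = 0.0286. Without limma's intensity trend the adjusted p was 0.0826. Within the libraries with Y-linked reads the log2 change was 1.78, and within those without 3.74. Each set is 2 against 2 libraries. The set with Y-linked reads called Myh4 (limma adjusted p = 0.000329), and the set without did not (adjusted p = 0.0866). The latter set holds the shallowest library of each group.

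Myh1, the fast IIX form, stood at 93.2, 70.5, 115 and 56.1 in wild-type and at 355, 205, 270 and 429 in mfn2-/- replicates 1 to 4. No library of one group reached the range of the other. The means were 83.8 ± 25.9 and 315 ± 98.0 (SD, n = 4 each), a ratio of 3.76. Its log2 change of 1.89 ± 0.36 (SE) passed limma's test (adjusted p = 0.00512) and gave the smallest exact permutation p, 0.0286. It was 1.73 with and 2.05 without Y-linked reads. The 4 libraries with Y-linked reads called it (limma adjusted p = 0.0198). The test of the 4 libraries without them did not call it (adjusted p = 0.151), nor any other member.

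Myh2, the IIA form, stood at 2.27, 61.2, 0 and 17.6 in wild-type and at 2.67, 18.96, 0.737 and 0 in mfn2-/- replicates 1 to 4. High and low libraries occurred in both groups. Its log2 change of -1.22 had a 95% interval from -4.47 to 2.02 (limma adjusted p = 0.657), and it was 0.99 with and -3.44 without Y-linked reads. Whether this change differs from those of Myh1 and Myh4 was not tested.

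Myh7, the slow form, was nearly absent from wild-type libraries. It stood at 0, 0, 0 and 1.07 in wild-type (2 reads in replicate 4) and at 15.3, 41.1, 35.4 and 0 in mfn2-/- replicates 1 to 4. The mfn2-/- replicate 4, shallow and with the fewest genes detected, was at 0 like most wild-type libraries, so the groups overlapped. Against the worth of 3 reads per wild-type library, the mfn2-/- mean of 22.9 was at least 6.56-fold higher. The fitted log2 change, 3.39 (SE 1.34), depends on the pseudocount and did not pass (limma adjusted p = 0.134). Without mfn2-/- replicate 4, the adjusted p was 0.0180, and without any other single library it was 0.188 to 0.296. Myh7 was called in 6 of 23 alternative analyses. The log2 change was 4.19 with and 2.59 without Y-linked reads (limma adjusted p = 0.0270 and 0.569).

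Myh6, the alpha-cardiac form, stood at 0, 15.6, 0 and 2.14 in wild-type and at 0, 5.53, 11.1 and 12.8 in mfn2-/- replicates 1 to 4. It rested on 48 reads over the 8 libraries. The groups overlapped, and a fit without the limit on low values gave 1.10 ± 1.35 (SE) on the log2 scale and a limma adjusted p = 0.677. That fit called 4.88% of 18877 symbols.

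Within the muscle members, Myh4 and Myh1 made up most of the reads in both groups. Myh4 took 42.6% ± 25.1 in wild-type and 56.1% ± 12.6 in mfn2-/- ASCs, and Myh1 took 33.8% ± 15.3 and 29.6% ± 7.43 (SD, n = 4 each). Myh8 took 3.91% ± 3.52 and 10.2% ± 9.09, with the higher shares in mfn2-/- replicates 3 (13.4%, Wilson 95% interval 11.7 to 15.4) and 4 (21.6%, 18.6 to 24.97). Myh2 and Myh3 were prominent in a single library, wild-type replicate 2, where they took 25.8% (20.5 to 31.8) and 30.1% (24.6 to 36.4) and Myh4 took 7.42% (4.69 to 11.6). For each of these 5 forms the ranges of the share overlapped between the groups.

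**Figure D3:**
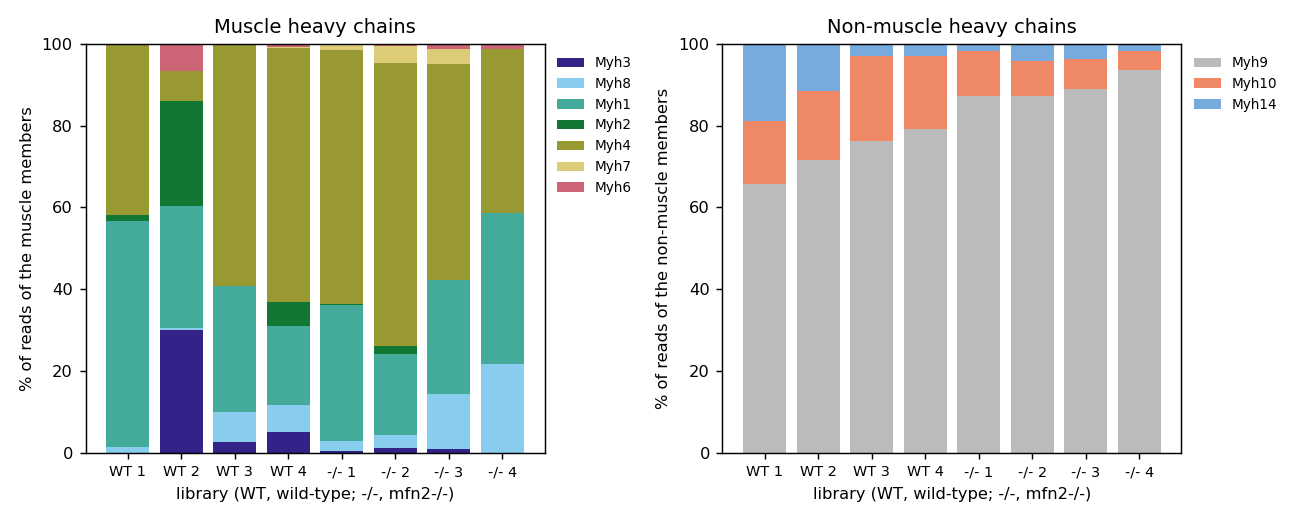
Stacked bars show each member's percentage of the reads of the muscle (left) and non-muscle (right) members in each library. Myh4 and Myh1 fill most of the left bars except in wild-type replicate 2, and Myh9 takes a larger share of each right bar in mfn2-/- than in wild-type libraries.

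Myofiber markers other than myosins were read from a separate list. Of 13 tested markers, 0 were called by limma (1 at an unadjusted p under 0.05), 0 by edgeR and 0 by DESeq2. The summed level of the 15 markers in the table ran from 1658 to 3851 in wild-type and from 2858 to 3865 in mfn2-/- libraries, and between 0 and 7 of them were at or under 3 reads in a library, most often in the shallowest ones. Acta1, skeletal alpha-actin, had means of 904 ± 306 and 1249 ± 516 (log2 change 0.45, limma adjusted p = 0.395), and Ckm, muscle creatine kinase, 114 ± 58.4 and 198 ± 102 (0.88, adjusted p = 0.347). Tnnt3, fast troponin T, was the 1 marker whose groups did not overlap, at 34.5 ± 24.2 and 134 ± 41.3 (2.86, adjusted p = 0.130). Acta1, Ckm and Tnnt3 were picked with their values known. Of the 13 tested markers, 10 had positive log2 changes, and Ryr1 (-0.73), Actn3 (-0.52) and Tnni2 (-0.44) had negative ones.

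Per kilobase of transcript, Myh9 was the most abundant member in every library. In normalized reads, not divided by length, it stood at 2231, 2466, 2255 and 2282 in wild-type replicates 1 to 4. In mfn2-/- replicates 1 to 4 it stood at 2548, 2432, 3308 and 4176. The wild-type libraries were close together (coefficient of variation 4.64%), and mfn2-/- replicate 2 fell within their range. On the log2 scale it changed by 0.40 on average, with a 95% interval from -0.02 to 0.82, and was not called (limma adjusted p = 0.230, exact permutation p = 0.0571). The change was 0.13 with and 0.66 without Y-linked reads.

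Myh10 moved the other way. It stood at 519, 580, 614 and 515 in wild-type and at 319, 235, 270 and 214 in mfn2-/- replicates 1 to 4. All mfn2-/- libraries were below all wild-type libraries. The means were 557 ± 48.4 and 260 ± 46.0 (SD, n = 4 each), with a log2 change of -1.11 ± 0.22 (SE). It was called by limma (adjusted p = 0.00628), with an exact permutation p = 0.0286. The change was of like size within both sets of libraries, -1.04 with and -1.19 without Y-linked reads. The 4 libraries with them called it (limma adjusted p = 0.00968), and the 4 without did not (adjusted p = 0.180). The fibroadipogenic and tenocyte markers named above were also lower in mfn2-/- libraries.

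Myh14 stood at 641, 399, 85.7 and 82.8 in wild-type and at 49.3, 117, 136 and 75.1 in mfn2-/- replicates 1 to 4. Wild-type replicates 1 and 2, which lack Y-linked reads, were high, and the other wild-type libraries lay within the mfn2-/- range. Averaged over the libraries it changed by -1.23 on the log2 scale (SE 0.64) and was not called (limma adjusted p = 0.257). The change was -0.15 with and -2.31 without Y-linked reads. The difference of these changes, 2.17 (SE 0.79), did not pass limma's interaction test (adjusted p = 0.301).

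Within the non-muscle members, the share of Myh9 was 73.2% ± 5.88 in wild-type and 89.3% ± 2.91 in mfn2-/- ASCs, and that of Myh10 was 17.7% ± 2.32 and 7.86% ± 2.56 (SD, n = 4 each). Neither share overlapped between the groups. The share of Myh14, 9.07% ± 7.74 and 2.81% ± 1.31, overlapped.

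**Figure D4:**
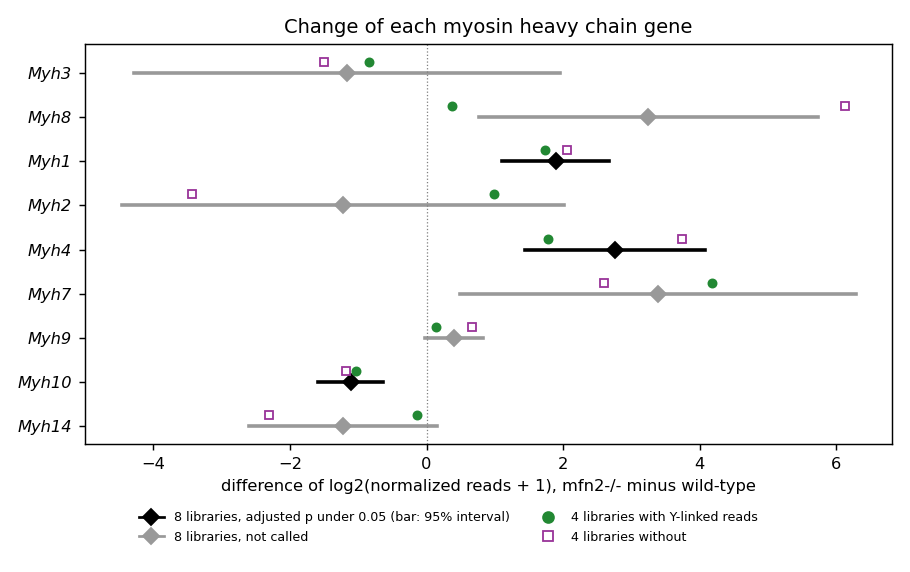
Diamonds show the difference of log2(normalized reads + 1), mfn2-/- minus wild-type, for the 9 tested members with 95% intervals, in black where the limma adjusted p was under 0.05. Circles and open squares give the change within the 4 libraries with and the 4 without Y-linked reads, which lie close together for Myh1 and Myh10 and far apart for Myh8 and Myh2.

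Levels of different genes were compared as normalized reads per kilobase of the transcript with the longest coding sequence. In wild-type ASCs the mean levels per kilobase ran from Myh9 (311) through Myh10 (71.8), Myh14 (46.5), Myh4 (20.3), Myh1 (13.8), Myh3 (3.97), Myh2 (3.33), Myh8 (2.01) and Myh6 (0.724) to Myh7 (0.0429). Among neighbours in that order, only Myh9 and Myh10 had ranges that did not overlap. In mfn2-/- ASCs the order was Myh9 (419), Myh4 (97.5), Myh1 (51.7), Myh10 (33.4), Myh8 (17.8), Myh14 (14.5), Myh7 (3.68), Myh6 (1.20), Myh3 (0.933) and Myh2 (0.919). There the ranges of Myh9 and Myh4, of Myh4 and Myh1 and of Myh14 and Myh7 were separate. Per kilobase, the IIB form thus stood below Myh10 in all 4 wild-type libraries and above it in all 4 mfn2-/- libraries.

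The muscle members resemble each other in sequence, which bears on how reads were assigned. In GENCODE M21 (GRCm38) Myh3, Myh2, Myh1, Myh4 and Myh8 lie in that order on the plus strand of chromosome 11 from 67078300 to 67308634, Myh6 and Myh7 side by side on chromosome 14, Myh9 on chromosome 15, Myh10 at 68691559 on chromosome 11, and Myh14 on chromosome 7. The submitters' notes name build mm9, and the table holds no coordinates. Of all 50-base windows of the Myh1 transcript, 26.7% also occur in another gene, and 19.7% occur in Myh2. The share was 26.9% for Myh2, 18.9% for Myh4, 21.4% for Myh8, 22.6% for Myh6, 22.2% for Myh7 and 4.81% for Myh3. It was 1.12% for Myh9, 0.947% for Myh10 and 0% for Myh14. In 100-base windows it fell to 9.73% for Myh1, 9.17% for Myh2 and 3.85% for Myh4. How reads that fit several genes were counted is not given in the sources used here, so the split between these muscle forms is uncertain to that extent.

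**Figure D5:**
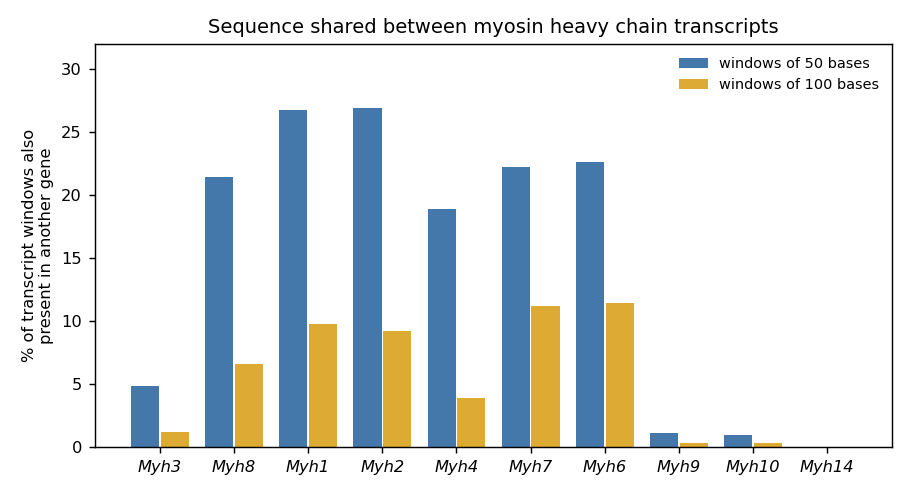
Bars give the percentage of all 50-base and 100-base windows of each transcript that also occur in a transcript of another gene. The share in 50-base windows is 18.9% to 26.9% in 6 of the muscle members, 4.81% in Myh3 and at most 1.12% in the non-muscle members.

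Antisense genes overlap several members, and the strand setting of the counting is not given in the sources used here. Myh1 shares 515 exonic bases with Myhas, Myh2 237 with 9430073C21Rik, Myh7 1149 with Mhrt, Gm29015 and Gm31251, Myh6 114 with Gm49130 and Myh14 60 with 2310016G11Rik. Reads there may belong to either gene. Myh3, Myh4, Myh8, Myh9 and Myh10 had 0 such bases.

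Partners of the heavy chains were read from 7 pathway lists. Of the other heavy chain genes only Myh11, the smooth muscle form, was tested, with means of 349 ± 58.5 and 222 ± 109 and a log2 change of -0.78 (limma adjusted p = 0.188). Among the muscle light chains, 0 of 4 tested were called by limma (1 at an unadjusted p under 0.05), 0 by edgeR and 0 by DESeq2, and Myl1, the fast essential light chain, had a log2 change of 0.18 (adjusted p = 0.814). Of the 4 light chains of smooth and non-muscle myosin 1 was lower, the regulatory chain Myl9, at 122 ± 46.0 and 24.1 ± 23.1 (-2.58, adjusted p = 0.0383). Myl9 kept its call in 12 of 24 alternative analyses.

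Of 9 kinases of the myosin light chain tested, 2 were higher and 1 lower. Mylk2, the skeletal muscle kinase of the fast regulatory light chain, stood at 79.6, 19.7, 34.3 and 26.2 in wild-type and at 721, 563, 185 and 134 in mfn2-/- replicates 1 to 4, with no overlap (log2 change 3.16, SE 0.61, limma adjusted p = 0.00548). Its log2 change was 4.36 with and 1.95 without Y-linked reads. The libraries with them called it (limma adjusted p = 3.82e-05), and those without did not (adjusted p = 0.391). Mylk, the smooth and non-muscle kinase, fell from 950 ± 148 to 335 ± 98.5 (-1.54, adjusted p = 0.00133), and it was called in 24 of 24 alternatives. Of the 6 phosphatase subunits 0 were called by limma (1 at an unadjusted p under 0.05), 0 by edgeR and 1 by DESeq2, and Ppp1r12a, the myosin-targeting subunit, had a log2 change of 0.13 (adjusted p = 0.663).

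Of 10 chaperones and thick filament proteins, 4 were higher and 0 lower. Of the 10, 8 had positive log2 changes. Unc45a, a chaperone that folds the myosin motor, had means of 240 ± 76.1 and 489 ± 129 (log2 change 1.05, limma adjusted p = 0.0344). Its relative Unc45b was not called, at 101 ± 31.7 and 61.5 ± 22.0 (-0.72, adjusted p = 0.417). Ttn, the giant sarcomere scaffold titin, had 834 ± 248 and 1326 ± 94.5 (0.71, adjusted p = 0.0462), and Myom1, which links thick filaments at the M band, 48.9 ± 27.0 and 166 ± 54.4 (1.91, adjusted p = 0.0468). Trim63, a ubiquitin ligase that acts on thick filament proteins, was at 0 in every wild-type library and at 7.33, 8.69, 18.4 and 143 in mfn2-/- replicates 1 to 4 (adjusted p = 0.0339). Its mfn2-/- mean was 12.7 times the worth of 3 reads per wild-type library, and 3.28 times without mfn2-/- replicate 4. These calls depended on the analysis: Unc45a was called in 13 of 24 alternatives, Myom1 in 10, Ttn in 8 and Trim63 in 9 of 23.

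Of the 8 regulators of non-muscle myosin 1 was lower and 0 higher. It was Racgap1, part of the complex that positions the contractile ring, at 357, 135, 127 and 123 in wild-type and 0, 18.96, 103 and 3.67 in mfn2-/- replicates 1 to 4 (log2 change -4.07, SE 1.19, limma adjusted p = 0.0457). The groups did not overlap, and mfn2-/- replicate 3 lay just below the wild-type range. Racgap1 was called in 8 of 24 alternatives.

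The genes closest in pattern over the 8 libraries were found as those with the smallest root mean square difference of standardized log2 values. For Myh1 they were Usp47 (0.182), Flii (0.224) and Srek1 (0.239), and for Myh4 Eif2ak2 (0.212), Mll5 (0.219) and Socs2 (0.247). For Myh10 they were Nt5e (0.154), Adamts2 (0.179) and Creb3l1 (0.187), all 3 lower in mfn2-/- ASCs by larger log2 changes of -3.14, -5.40 and -3.39. For Myh9 they were Nat10 (0.152), Samd4 (0.155) and Naca (0.167). Under quantile normalization 1 of these 12 genes, Mll5, remained among the 3 nearest to its member. That the genes nearest to Myh10 were lower follows from how they were found. The size of a change does not enter the distance.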

How the data were processed

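Total RNA of sorted ASCs was sequenced in 4 wild-type and 4 mfn2-/- libraries, and group and replicate were taken from the labels. The deposited values are a linear signal per gene: the authors divided the read counts of each library by 1 size factor, since 100% of values in each column were whole multiples of 1 step (tolerance 0.01). Dividing by the step gave back whole reads. Trim Galore, HISAT2, featureCounts, DESeq2 and build mm9 are named in the submitters' processing notes, without versions or settings. Per the labels the kit was stranded. The table held 24 symbols turned into dates and 0 columns that were not used.

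The main test was limma (version 3.58.1, R 4.3.3), two-sided and with an intensity trend, of log2(value + 1) for the 11754 genes with a mean of at least 10. Benjamini-Hochberg adjusted p-values over all of them were called at 0.05. Such differences understate the change of weak genes. An exact permutation test (two-sided, 70 arrangements) was run on each member. On recovered reads, edgeR 4.0.16 (quasi-likelihood, TMM) called 9.85% of genes and DESeq2 1.42.0 called 14.8%. The fits were also run on simulated reads as a check of the code. That simulation held no difference in cell types between the groups, so it does not measure the error in these data. Tables and figures used Python 3.11.15.

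The members and lists were chosen with earlier results of these data known. Of 129 listed genes 126 were in the table (Mymk as Tmem8c, Mymx as Gm7325, Adgre1 as Emr1). The text names all members, Mfn2, from each pathway list the called genes (otherwise its most abundant gene; 1 called kinase is not reported here), and the 3 genes nearest in pattern to each called member and to the most abundant one. Of the cell type lists, smooth muscle and mural cells had 1 higher and 2 lower of 7 tested, and endothelium (7), leukocytes (4) and cardiac muscle (2) had 0 called by limma, edgeR or DESeq2 and 0 at an unadjusted p under 0.05. Coordinates and lengths are from GENCODE M21 and promoter sequence from RefSeq, both GRCm38. No position was converted between builds. Alternatives were pseudocounts of 0.1 and 10, no limit and a mean of at least 50, equal totals, upper-quartile and quantile scaling, no trend, library weights, a replicate block, a term for Y-linked reads, each set of libraries with and without them, each library left out, and edgeR and DESeq2. Leaving out the shallowest library of each group was added after the data had been seen.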

Additional observations from a re-analysis of the deposited data

Results flagged for a closer look

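In 3 of 24 groups of 4 values, 1 library stood apart from the other 3 by Dixon's criterion. Chance passes it in about 5% of groups of normally distributed values. The 3 groups flagged hold mostly values near 0, so that rate cannot be applied to them. Myh2 was at 18.96 normalized reads in mfn2-/- replicate 2, with the next highest library of that group at 2.67. Myh6 was at 15.6 in wild-type replicate 2, next to 2.14. Myh7 was at 1.07 in wild-type replicate 4, where the other wild-type libraries were at 0, and this value is 2 reads.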

How the results depend on the processing

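Over the alternatives, 199 of the 213 recomputed member changes kept their direction and their side of the threshold, 8 passed it, 4 fell short of it and 2 turned. Myh2 turned to 0.40 with library weights and to 0.99 in the libraries with Y-linked reads. Outside the members, Myl1 turned to -0.0924 with library weights and ran from -0.12 (without mfn2-/- replicate 4) to 0.38 with 1 library left out, turning also without wild-type replicate 3, and Ppp1r12a turned to -0.00625 with quantile normalization. The 3 members called (2 higher, 1 lower) became 5 (4 higher) with quantile normalization and with DESeq2, where Myh7 and Myh8 passed. Without the trend 1 higher member was called. In the libraries without Y-linked reads 0 were called, 0 higher and 0 lower, and in those with them 4, 3 higher and 1 lower. Both sets are 2 against 2, and the set without holds the shallowest library of each group. Each library left out gave 3 to 4 members called, 2 to 3 higher and 1 lower. The muscle share differed between the groups by 15.8 percentage points, and by 14.8 to 16.9 with each library left out. The 1217 genes called (469 higher, 748 lower) became 713 (153 higher) with upper-quartile scaling, 633 (113 higher) without the trend, 3037 (1398 higher, 1639 lower) with library weights, 177 (37 higher, 140 lower) in the libraries without and 2502 (1178 higher, 1324 lower) in those with Y-linked reads. Leaving out 1 library gave 670 to 1307 genes (235 to 470 higher, 435 to 837 lower), lowest without wild-type replicate 3 and 749 without wild-type replicate 4. Leaving out mfn2-/- replicates 1, 2 and 3 gave 273, 260 and 312 higher. Higher genes were 38.5% of calls, 21.5% with upper-quartile scaling and 17.9% without the trend. The causes were not tested. Quantile normalization moved the median change of all genes by 0.29 and the edgeR fit with TMM by 0.11, and Myh1, Myh4 and Myh10 kept their calls under both. Replicate numbers showed no visible pairing of the samples (correlations of same-numbered deviations from -0.11 to 0.04). Such correlations cannot establish that the samples were unpaired. The replicate block called 1043 genes and the same number of members, 3. Without the shallowest library of each group 1567 genes and 4 members, Myh7 added, were called. Depth limits Myh2, Myh3, Myh6, Myh7 and Myh8, which rest on 48 to 465 reads over all libraries.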
